A study of Mus musculus with 4 samples.

Results

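The enzymes that add methyl groups to histone lysines and those that remove them were read in sorted mouse bone marrow hematopoietic stem cells (HSCs). Members were the gene symbols of the Kdm, Setd, Setdb, Suv39h, Suv420h, Ehmt, Smyd and Mll families together with Nsd1, Whsc1, Whsc1l1 and Dot1l, leaving out the Y-linked Kdm5d. The rule found 43 of 23450 listed genes. By the residue they act on, 18 were methyltransferases, 15 were demethylases and 10 had no settled histone residue. RNA sequencing compared long-term HSCs (LT-HSC), gated as CD48-, CD34-, CD150+ and CD9-high (CD9 is a tetraspanin), with short-term HSCs (ST-HSC), gated as CD48-, CD150+ and CD9-low. Each group had 2 libraries of 2000 sorted cells. The ST-HSC label gives no CD34 gate, and no strain, age, sex or number of animals was given for either group. Nothing in the labels says that libraries came from separate animals, so a p-value here measures the spread between libraries alone, and that spread may be technical.

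Histone lysine methylation marks chromatin states. Methylated H3K4 lies at active promoters and enhancers, H3K36 and H3K79 methylation at transcribed gene bodies, H3K9 methylation at heterochromatin, H3K27 methylation at genes silenced by Polycomb, and H4K20 methylation at condensed and replicating chromatin. Most of the methyltransferases carry a SET domain, while Dot1l has a different fold. The demethylases are either flavin-dependent amine oxidases (Kdm1a and Kdm1b) or Jumonji oxygenases that use iron and 2-oxoglutarate. In blood, Mll1 is required for HSC maintenance and is rearranged in leukemia, and Kdm1a works with the repressors Gfi1 and Gfi1b.

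The libraries held 13063137 and 16142931 recovered reads in LT-HSC 1 and 2, and 15029913 and 14822736 in ST-HSC 1 and 2. Levels are in CPM, reads scaled to the library total. Pearson's r of log2(CPM + 1) over the 12569 tested genes was 0.736 within LT-HSC, 0.797 within ST-HSC and 0.714 to 0.763 across groups, a description over genes that share a library. All 14 HSC marker genes had reads in every library, and their summed level was 4585 and 4774 CPM in LT-HSC against 3531 and 3781 CPM in ST-HSC. The 31 listed cell cycle genes summed to 2235 and 2257 CPM in LT-HSC against 3692 and 4727 CPM in ST-HSC. For 18 of these genes (58.1%) the 2 LT-HSC values were the lowest, against 17.5% of all tested genes. The part of the cell cycle genes in any result below was not tested. The megakaryocyte list summed to 484 and 530 CPM in LT-HSC against 364 and 232 CPM in ST-HSC, but to 180 and 151 CPM in LT-HSC against 319 and 223 CPM in ST-HSC without Vwf, which was left out after the values were seen. Vwf had 304 and 380 CPM in LT-HSC against 45.3 and 9.17 CPM in ST-HSC. Itga2b went the other way, with 2.45 and 5.01 CPM in LT-HSC against 152 and 105 CPM in ST-HSC. The list's median log2 fold change was -0.20. Of its 8 tested genes, 1 lay above both ST-HSC libraries and 3 below, against 16.1% and 17.5% of all tested genes. The endothelial and stromal list summed to 352 and 268 CPM in LT-HSC against 195.5 and 239 CPM in ST-HSC. Of its 6 tested genes, 3 lay above both ST-HSC libraries and 0 below, against 16.1% and 17.5% of all tested genes. Col1a2 had 508 and 111 reads in LT-HSC against 0 and 1 reads in ST-HSC. Cxcl12 had 311 and 5 reads in LT-HSC against 0 and 0 reads in ST-HSC. Col1a1 had no read in LT-HSC, and Lepr had none in any library. The part of stromal cells in these values was not tested. The erythroid (526 to 666 CPM in LT-HSC against 653 to 788.5 CPM in ST-HSC), granulocyte and monocyte (438 to 571 CPM in LT-HSC against 493 to 688 CPM in ST-HSC) and lymphocyte (238 to 249 CPM in LT-HSC against 252 to 279 CPM in ST-HSC) sums were also read. The lymphocyte genes Pax5, Cd3e, Cd3d, Il7r and Dntt and the red cell gene Slc4a1 had no read in any library. Read in every library were Cd79b (91.7 to 209 CPM), Prtn3 (216 to 289 CPM) and Hbb-b1 (108 to 130 CPM). Both LT-HSC values were the lowest for 3 of 9 tested erythroid, 5 of 12 granulocyte and monocyte and 3 of 5 lymphocyte genes. They were the highest for 1 in each list. Over all tested genes 17.5% were lowest and 16.1% highest. Mpo (151 and 316 reads in ST-HSC) and Klf1 (413 and 140 reads in ST-HSC) had at most 4 reads in each LT-HSC library. Cd48, a gene of the gate, had 0.153 and 0.124 CPM in LT-HSC against 16.4 and 38.8 CPM in ST-HSC. Cd34, although LT-HSC were gated as CD34-, had 134 and 201 CPM in LT-HSC against 324 and 430 CPM in ST-HSC. Cd9 had 134 and 124 CPM in LT-HSC against 100 and 113 CPM in ST-HSC. In these bulk libraries fewer cells of a type and less RNA per cell cannot be told apart.

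No member passed the test. Of 12569 genes tested with limma, 0 passed an adjusted p under 0.05 (0% of genes tested), and 814 (6.48%) had an unadjusted p under 0.05. None of the 42 tested members was among those 814, and the smallest adjusted p of a member was 0.767. Differences below are therefore values and not calls. Kdm4d was the single member that did not reach 1 CPM in 2 libraries. Reads were found for 41 members in every library, and the exceptions were Suv39h2 and Kdm4d. Their summed level was 4922 and 4951 CPM in LT-HSC against 5513 and 4892 CPM in ST-HSC, so the group sums overlapped.

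**Figure D1:**
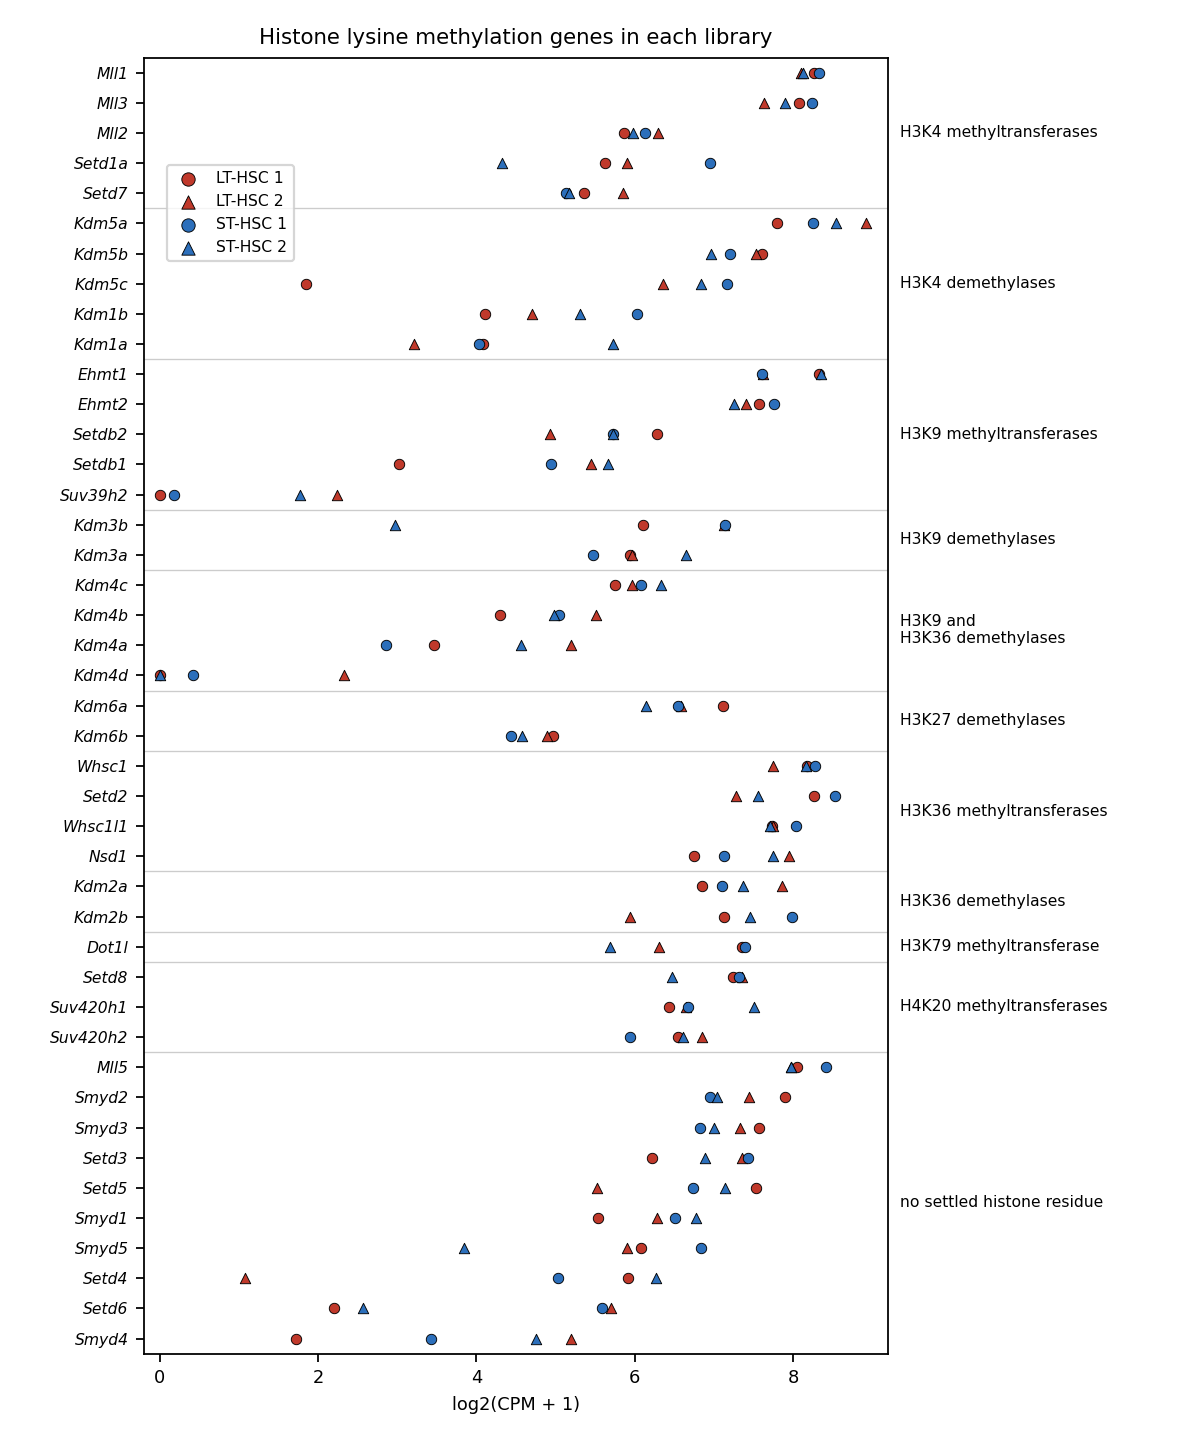
Level of each of the 43 members as log2(CPM + 1) on the horizontal axis, grouped by target residue, with 1 point per library (red LT-HSC, blue ST-HSC, circles for libraries numbered 1, triangles for those numbered 2). For most members the red and blue points interleave, and Kdm5c, Setd4, Setd6, Smyd4, Kdm3b, Kdm4d and Suv39h2 spread widely between libraries of the same group.

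For 6 of the 42 tested members the LT-HSC values were both above the ST-HSC ones (16.1% of all tested genes did so), and for 6 both were below (17.5% of all tested genes). That is 28.6% of members without overlap between groups, against 33.7% of all tested genes. The 6 above were Smyd2, Smyd3, Kdm5b, Kdm6a, Kdm6b and Setd7, and the 6 below were Kdm5c, Kdm1b, Kdm2b, Smyd1, Suv420h1 and Kdm4c. With a log2 fold change of at least 0.5 required as well, 3 members remained above (7.14% of members, 12.3% of all tested genes) and 5 below (11.9% of members, 13.5% of all tested genes). The median log2 fold change on the log2(CPM + 1) scale, LT-HSC over ST-HSC, was -0.10 over the members and -0.0098 over all tested genes. Within number 1 and number 2 libraries the members' median was -0.22 and 0.21, and leaving out LT-HSC 1 gave 0.17.

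By class, among the 18 methyltransferases assigned to a residue, 16 had a log2 fold change within 0.5 of 0, while 7 of the 14 tested demethylases and 4 of the 10 members with no settled residue did. The methyltransferases outside that range were Setdb1 (-1.07) and Suv420h1 (-0.55). Over all tested genes 51.5% lay in that range, and among the 4964 genes with a mean level between the members' quartiles (44.7 and 165 CPM) 60.4% did. Groups did not overlap for 2 of the 18 methyltransferases, 7 of the 14 demethylases and 3 of the 10 members with no settled residue. Over all tested genes 33.7% did not overlap. These 10 members are Smyd and Setd genes and Mll5, from methyltransferase families. Counting them with the 18 methyltransferases narrows both contrasts with the demethylases. The classes also differed in level, with a median of 128 CPM for the methyltransferases and 75.5 CPM for the demethylases, and the difference between them was not tested.

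**Figure D2:**
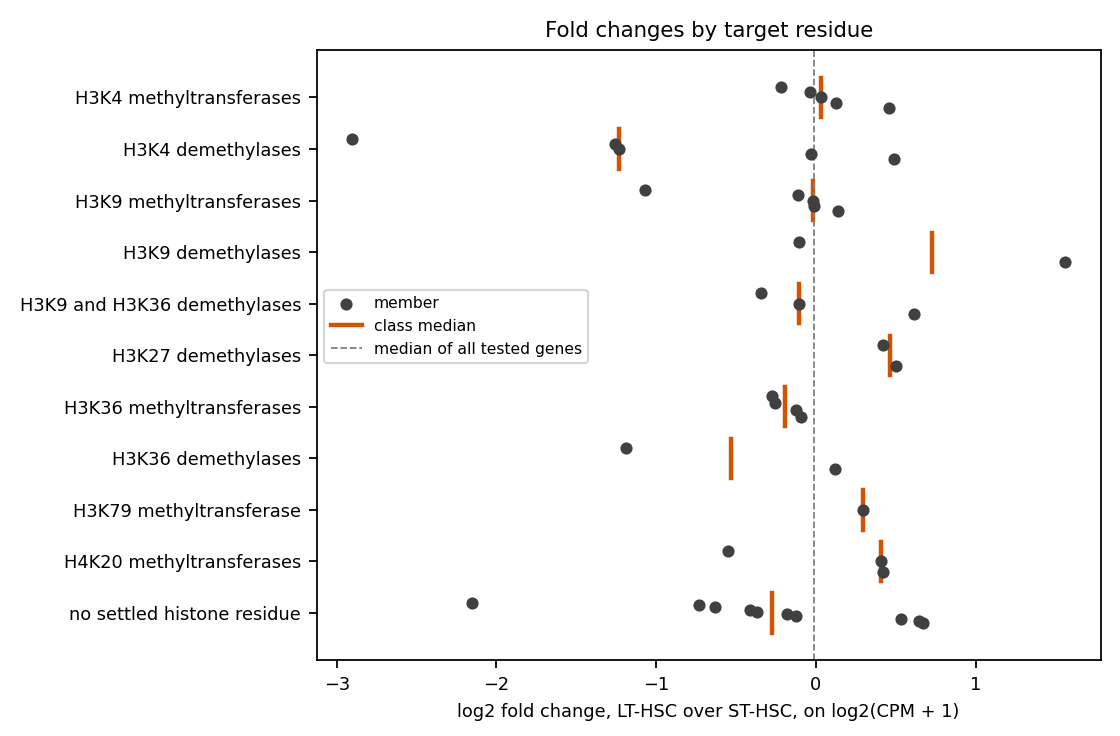
Log2 fold change of each tested member, LT-HSC over ST-HSC on the log2(CPM + 1) scale, by target residue, with class medians as orange bars and the median of all tested genes as a dashed line. The 5 H3K4 and 4 H3K36 methyltransferases sit near 0, and the H3K4 demethylases reach from -2.90 for Kdm5c to 0.49 for Kdm5b.

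Promoter sequences are shown for 3 members without overlap between groups, to set their base composition side by side: Smyd2, the highest of the members per transcript length and above both ST-HSC libraries, and Kdm1b and Smyd1, below both. They run from 250 bases before to 50 after the annotated start (RefSeq, GRCm38.p6), written 5′ to 3′ on the gene's strand, with each CG dinucleotide in capitals.
Smyd2 promoter, chr1:189922242-189922541, minus strand: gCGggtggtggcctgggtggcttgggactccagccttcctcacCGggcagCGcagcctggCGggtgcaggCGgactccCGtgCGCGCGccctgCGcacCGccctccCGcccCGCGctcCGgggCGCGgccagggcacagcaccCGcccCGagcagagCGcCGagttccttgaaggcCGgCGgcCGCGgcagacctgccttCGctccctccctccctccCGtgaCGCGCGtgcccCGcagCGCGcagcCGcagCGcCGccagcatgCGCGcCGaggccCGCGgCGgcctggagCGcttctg
Kdm1b promoter, chr13:47043249-47043548, plus strand: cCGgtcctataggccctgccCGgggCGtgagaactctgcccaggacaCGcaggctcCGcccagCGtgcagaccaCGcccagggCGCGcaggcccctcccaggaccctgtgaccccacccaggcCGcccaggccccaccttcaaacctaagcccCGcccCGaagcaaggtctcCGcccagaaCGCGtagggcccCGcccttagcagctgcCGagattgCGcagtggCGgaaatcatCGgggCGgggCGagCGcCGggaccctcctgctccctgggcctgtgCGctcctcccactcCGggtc
Smyd1 promoter, chr6:71262232-71262531, minus strand: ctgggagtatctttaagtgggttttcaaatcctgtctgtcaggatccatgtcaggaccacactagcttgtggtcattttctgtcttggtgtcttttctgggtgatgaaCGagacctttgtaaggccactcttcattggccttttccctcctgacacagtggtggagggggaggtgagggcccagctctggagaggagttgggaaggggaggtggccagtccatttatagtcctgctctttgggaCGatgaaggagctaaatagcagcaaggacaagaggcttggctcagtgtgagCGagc
These hold 43, 26 and 3 CG dinucleotides. Of the 42 members matched to a RefSeq gene, 32 had a promoter in the table, with a median of 25 CG dinucleotides in the first one listed, against 20 over 9559 tested genes. At least 15 were found in 26 of these 32 (81.2%) and in 69% of the tested genes. Smyd1, known as a gene of heart and skeletal muscle, was among the members with few, together with Setd5 (1) and the first listed start of Kdm4c (0, against 28 at its other start).

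No H3K4 methyltransferase passed the test, and the groups overlapped for 4 of the 5. Of all tested genes 33.7% did not overlap. Mll1, which encodes the founding member of the MLL family, had 306 and 275 CPM in LT-HSC against 319 and 278 CPM in ST-HSC. The 4 values overlapped, and the log2 fold change was -0.04 ± 0.20 (SE), with a 95% interval from -0.56 to 0.48 by limma (adjusted p = 1). Mll3, whose product monomethylates H3K4 at enhancers, was at 268 and 197 CPM in LT-HSC against 302 and 238 CPM in ST-HSC, also overlapping. Mll2 ranged from 57.4 to 77.6 CPM over the 4 libraries. The symbol Mll2 has been used for both Kmt2b and Kmt2d. Wbp7, an older name of Kmt2b, is listed separately, which would leave Kmt2d for Mll2. The authors' annotation is not given, and Mll2 was not assigned. Setd1a, the catalytic subunit of a COMPASS complex that trimethylates H3K4, had 48.4 and 58.7 CPM in LT-HSC against 123 and 19.1 CPM in ST-HSC, so its 2 ST-HSC libraries enclosed the LT-HSC values (log2 fold change 0.12, 95% interval -2.31 to 2.55). Setd7, a monomethyltransferase of H3K4 and of non-histone proteins, was above both ST-HSC libraries at 40.1 and 56.8 CPM in LT-HSC against 34.0 and 34.9 CPM in ST-HSC (log2 fold change 0.46 ± 0.52 SE). The median log2 fold change of the class was 0.03.

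The H3K4 demethylases stood apart from each other. Kdm5c, an X-linked demethylase of H3K4 di- and trimethylation, had 2.60 and 80.8 CPM in LT-HSC against 143 and 113 CPM in ST-HSC. LT-HSC 1 stood far below the other 3 libraries, and the LT-HSC libraries differed 31.1-fold. The log2 fold change of Kdm5c was -2.90 ± 1.51 (SE, adjusted p = 0.817 by limma), and -0.65 without LT-HSC 1. Kdm1b, the second amine oxidase demethylase, had 16.3 and 25.1 CPM in LT-HSC against 64.2 and 38.6 CPM in ST-HSC. Both LT-HSC values of Kdm1b lay below both ST-HSC values, with a log2 fold change of -1.26 ± 0.64 (SE, adjusted p = 0.815), and the value ran from -1.62 to -0.90 with single libraries left out. In the GENCODE M21 annotation 498 exonic bases of Kdm1b overlap Dek on the opposite strand, and whether the authors counted by strand is not given in the sources used here. Dek itself was at 299 and 284 CPM in LT-HSC against 322 and 274 CPM in ST-HSC, which overlap. The part of Dek reads in the Kdm1b values was not tested.

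Kdm1a (LSD1), which removes H3K4 mono- and dimethylation in the CoREST complex, had 16.0 and 8.23 CPM in LT-HSC against 15.4 and 51.8 CPM in ST-HSC. The highest library was ST-HSC 2 and the groups overlapped, and the log2 fold change was -1.23 ± 0.97 (SE). Between the number 1 libraries alone the log2 difference was 0.05. Kdm5a, a trimethyl-H3K4 demethylase that binds the retinoblastoma protein, had 222 and 486 CPM in LT-HSC against 304 and 372 CPM in ST-HSC, with the LT-HSC values on either side of the ST-HSC ones. Kdm5b, its paralog, was above both ST-HSC libraries at 194 and 184 CPM in LT-HSC against 146 and 124 CPM in ST-HSC (log2 fold change 0.49 ± 0.26 SE, adjusted p = 0.816). The class sum was 451 and 784 CPM in LT-HSC against 672 and 700 CPM in ST-HSC, which overlap. The median log2 fold change of these 5 genes was -1.23, and -0.90 to -0.39 with single libraries left out.

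**Figure D3:**
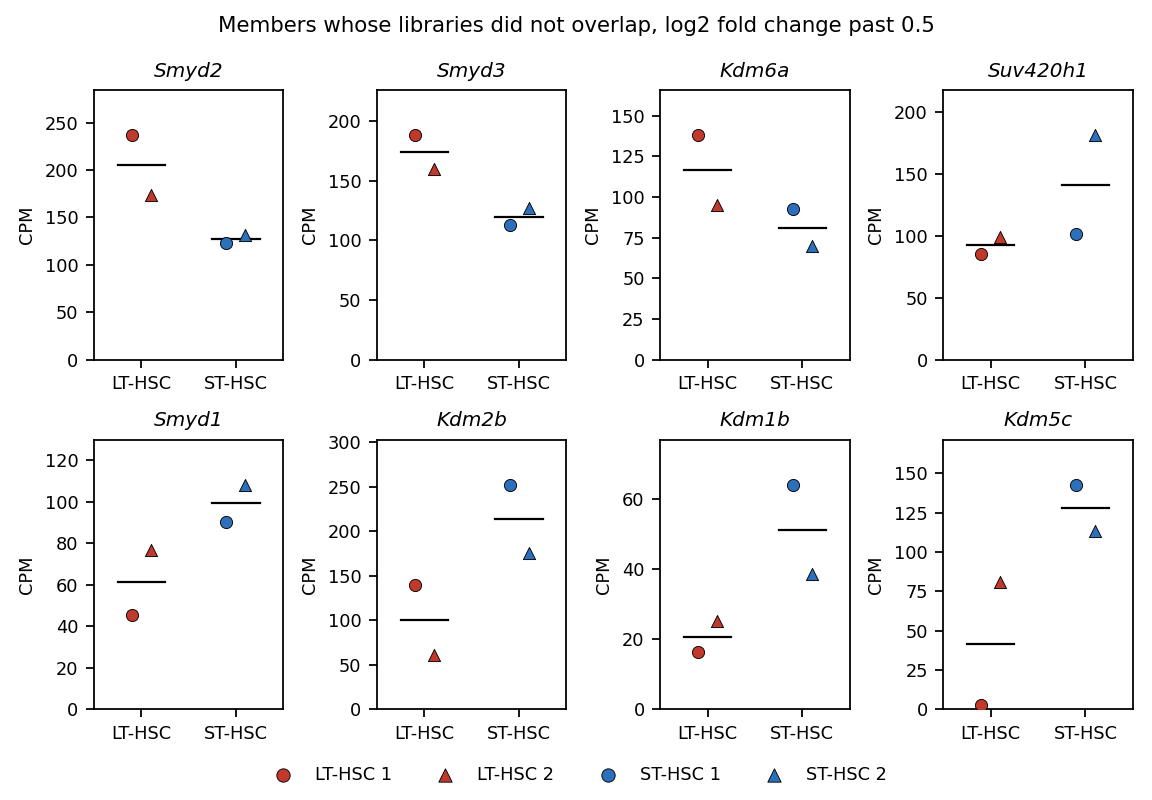
CPM by library (points) and group means (horizontal lines) for the 8 members without overlap between groups and with a log2 fold change of at least 0.5 in either direction, LT-HSC left and ST-HSC right, each axis from 0. Smyd2, Smyd3 and Kdm6a were higher in LT-HSC and Suv420h1, Smyd1, Kdm2b, Kdm1b and Kdm5c lower, and the Kdm5c mean of LT-HSC lies between 2.60 and 80.8 CPM.

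None of the 5 H3K9 methyltransferases separated the groups, while 33.7% of all tested genes did. Ehmt1 and Ehmt2, whose products G9a-like protein and G9a pair to mono- and dimethylate H3K9, were the highest of the class per transcript length. Ehmt1 had 319 and 196 CPM in LT-HSC against 195 and 327 CPM in ST-HSC, a spread of 1.63-fold and 1.68-fold within the groups, with a log2 fold change of -0.01 ± 0.38 (SE). Ehmt2 ranged from 152 to 216 CPM over the 4 libraries (log2 fold change -0.02 ± 0.28 SE, 95% interval -0.75 to 0.71). Setdb1, the trimethylating enzyme recruited by Trim28 to silence retroelements, had 7.11 and 42.5 CPM in LT-HSC against 29.7 and 49.7 CPM in ST-HSC. Its log2 fold change of -1.07 ± 1.02 (SE) was the furthest from 0 among the 18 methyltransferases assigned to a residue. LT-HSC 1 was the low library for Setdb1, as for Kdm5c. Setdb2 ranged from 29.6 to 76.9 CPM, with both extremes in LT-HSC. Suv39h2, which trimethylates H3K9 in heterochromatin, had 0 and 60 reads in LT-HSC against 2 and 36 reads in ST-HSC, near the floor of 3 reads in the number 1 libraries. Suv39h1 is not analysed here.

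Most H3K9 demethylases differed more between libraries of a group than between groups. Kdm3b had 67.5 and 139 CPM in LT-HSC against 140 and 6.88 CPM in ST-HSC, so its log2 fold change of 1.56 ± 1.42 (SE) rested on ST-HSC 2 and was -0.52 without it. Kdm3a, a dimethyl-H3K9 demethylase induced by hypoxia, was at 60.4 and 61.5 CPM in LT-HSC between the ST-HSC values of 43.5 and 99.1 CPM. Of the Kdm4 genes, whose products remove H3K9 and H3K36 trimethylation, Kdm4c had 52.9 and 61.7 CPM in LT-HSC against 66.7 and 79.3 CPM in ST-HSC. Kdm4c lay below both ST-HSC libraries by a small margin (log2 fold change -0.34 ± 0.39 SE, -0.22 without ST-HSC 2). Kdm4a (6.25 to 35.6 CPM) and Kdm4b (18.7 to 44.8 CPM) overlapped between groups, and for Kdm4a the number 2 library was the higher in both groups. Kdm4d, known from testis, had 0 and 65 reads in LT-HSC against 5 and 0 reads in ST-HSC.

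Neither H3K27 demethylase passed the test, and for both the LT-HSC values were the higher, as for 16.1% of all tested genes. Kdm6a (UTX), an X-linked subunit of the enhancer complexes of Mll3, had 138 and 94.8 CPM in LT-HSC against 92.6 and 69.9 CPM in ST-HSC. The lower LT-HSC and the higher ST-HSC value were nearly equal, and the log2 fold change was 0.50 ± 0.37 (SE, adjusted p = 0.886), and with LT-HSC 1 left out it was 0.23, and with LT-HSC 2 left out 0.77. Kdm6b (JMJD3), which is induced in inflammation and differentiation, had 30.2 and 28.7 CPM in LT-HSC against 20.7 and 22.9 CPM in ST-HSC, a close agreement within each group (log2 fold change 0.42 ± 0.65 SE). The log2 difference between libraries of the same number was 0.57 and 0.43 for Kdm6a and 0.53 and 0.31 for Kdm6b. Together they summed to 168 and 124 CPM in LT-HSC against 113 and 92.8 CPM in ST-HSC. Of the opposing methyltransferases of Polycomb, which are not members, Ezh2 had 118 and 128 CPM in LT-HSC against 219 and 190.5 CPM in ST-HSC (unadjusted p = 0.0352 and adjusted p = 0.749 by limma), while Ezh1 ranged from 51.1 to 175 CPM and overlapped.

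The H3K36 methyltransferases overlapped between groups in all 4 genes, while 33.7% of all tested genes did not overlap. The class median log2 fold change was -0.19, and ran from -0.30 to -0.08 with single libraries left out. Whsc1 (NSD2), which dimethylates H3K36, had 289 and 215 CPM in LT-HSC against 310 and 286 CPM in ST-HSC (log2 fold change -0.26 ± 0.24 SE, -0.47 without LT-HSC 1 and -0.04 without LT-HSC 2). Whsc1l1 (NSD3) was at 212 and 214 CPM in LT-HSC against 261 and 208 CPM in ST-HSC. Setd2, the trimethylating enzyme that travels with elongating RNA polymerase, had 306 and 154 CPM in LT-HSC against 369 and 188 CPM in ST-HSC. In both groups its number 1 library was about as much higher, 1.99-fold in LT-HSC and 1.97-fold in ST-HSC. Nsd1 showed the opposite pattern, with 106 and 246 CPM in LT-HSC against 139 and 214 CPM in ST-HSC.

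Kdm2b had the smallest p of all members. This CXXC-domain protein removes H3K36 dimethylation and brings a variant Polycomb complex to unmethylated CpG islands. It had 139 and 60.5 CPM in LT-HSC against 252 and 175 CPM in ST-HSC, so all LT-HSC values lay below the ST-HSC ones. LT-HSC averaged 99.8 ± 55.6 CPM, against 214 ± 54.3 CPM for ST-HSC (SD, n = 2 each), with a log2 fold change of -1.19 ± 0.49 (SE, adjusted p = 0.767 by limma) that ran from -1.78 to -0.59 with single libraries left out. Exons of Kdm2b share 950 bases with other annotated genes, namely Rnf34 and A930024E05Rik on the opposite strand and Gm44574 on the same strand. Levels of Rnf34 overlapped between groups (66.6 and 79.2 CPM in LT-HSC against 96.5 and 27.6 CPM in ST-HSC). The part of reads from these genes in the Kdm2b values was not tested. The paralog Kdm2a was at 114 and 232 CPM in LT-HSC against 136 and 165 CPM in ST-HSC and overlapped. Both genes together summed to 254 and 292 CPM in LT-HSC against 389 and 340 CPM in ST-HSC.

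Dot1l, the only known H3K79 methyltransferase, had 162 and 78.4 CPM in LT-HSC against 167 and 50.5 CPM in ST-HSC. Its number 1 library was the higher in both groups, and the log2 fold change was 0.29 ± 0.70 (SE). Of the H4K20 methyltransferases, Setd8, which places the monomethyl mark in the G2 and M phases, had 151 and 162 CPM in LT-HSC against 158 and 87.9 CPM in ST-HSC, with ST-HSC 2 the low library. Suv420h1, which di- and trimethylates H4K20, had 85.5 and 99.5 CPM in LT-HSC against 101 and 182 CPM in ST-HSC. Its groups were separated by less than the spread within either of them, and the log2 fold change was -0.55 ± 0.40 (SE, adjusted p = 0.876), or -0.13 without ST-HSC 2. With median-of-ratios factors its groups overlapped. Suv420h2 ranged from 60.2 to 114 CPM and overlapped.

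The Smyd family, whose members join a split SET domain to a MYND zinc finger and act largely on non-histone proteins, lay on both sides of 0. Smyd2, which methylates p53 and HSP90, had 237 and 173 CPM in LT-HSC against 123 and 131 CPM in ST-HSC. The LT-HSC libraries were both higher, averaging 205 ± 44.8 CPM, against 127 ± 5.41 CPM for ST-HSC (SD, n = 2 each), with a log2 fold change of 0.67 ± 0.28 (SE, adjusted p = 0.767). Smyd3, a mainly cytoplasmic enzyme that methylates MAP3K2, had 188 and 160 CPM in LT-HSC against 113 and 127 CPM in ST-HSC (log2 fold change 0.53 ± 0.27 SE, adjusted p = 0.815). The log2 fold changes ran from 0.45 to 0.89 for Smyd2 and from 0.41 to 0.65 for Smyd3 with single libraries left out. In GENCODE M21, 659 exonic bases of Smyd2 overlap the gene model Gm37422 on the opposite strand, while Smyd3 had no such overlap.

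Smyd1 lay on the other side, with 45.4 and 76.8 CPM in LT-HSC against 90.2 and 108 CPM in ST-HSC (log2 fold change -0.73 ± 0.42 SE, adjusted p = 0.841), a value that was -0.36 without LT-HSC 1 and -1.11 without LT-HSC 2. Smyd4 and Smyd5 overlapped, and Smyd5 had 66.6 and 58.6 CPM in LT-HSC between ST-HSC values of 114 and 13.4 CPM. Mll5, a catalytically inactive relative of the MLL proteins, had 263.5 and 250 CPM in LT-HSC against 339 and 250.1 CPM in ST-HSC. Setd5 and Setd3, a histidine methyltransferase of actin, ranged from 44.9 to 184 CPM and from 73.4 to 172 CPM and overlapped. Setd4 had 59.3 and 1.11 CPM in LT-HSC against 31.8 and 76.2 CPM in ST-HSC. Setd6, which methylates the NF-kappaB subunit RelA, had 3.59 and 50.8 CPM in LT-HSC against 46.9 and 4.92 CPM in ST-HSC, with 1 high and 1 low library in each group.

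Spread between libraries of a group was at least 10-fold for 7 members, namely Kdm5c, Setd4, Setd6, Smyd4, Kdm3b, Kdm4d and Suv39h2. For 30 of the 42 tested members (71.4%) the mean log2 difference between libraries of a group exceeded the absolute log2 fold change, against 67.1% of the genes at a similar level. The median within-group difference was 0.65 for members, 0.56 for those genes and 0.74 for all tested genes. The methyltransferases had a median of 0.51, and the members without a settled residue 1.03.

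**Figure D4:**
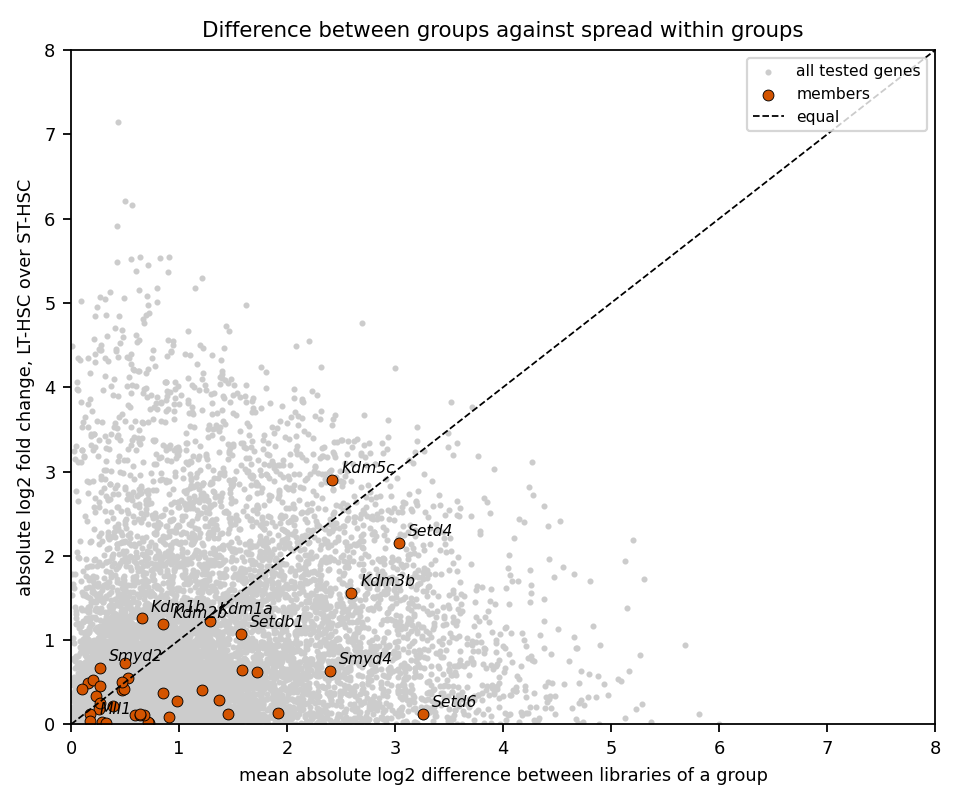
Absolute log2 fold change against the mean absolute log2 difference between libraries of a group, 1 point per tested gene (grey) and per member (orange), both on the log2(CPM + 1) scale. Of the 42 members, 30 lie right of the dashed line of equality, while Smyd2, Kdm1b and Kdm2b lie left of it and Setd6 far to its right.

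Levels between members were compared per kilobase of the longest coding transcript in GENCODE M21, available for 42 members. Smyd2 was the highest at 98.9 CPM per kilobase (mean of 4 libraries), followed by Setd8 at 51.0, Setd3 at 47.7, Ehmt2 at 45.0 and Ehmt1 at 43.5. The median was 17.4, Mll1 stood at 17.9 and Mll3 at 16.8, and Suv39h2 was the lowest at 0.362. The cDNA kit may weight transcript ends, which such a scale does not correct.

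Enzymes of the same chemistry listed under names outside the rule were read beside the members. Jhdm1d, an older name of Kdm7a, which demethylates H3K9 and H3K27, had 37.2 and 13.1 CPM in LT-HSC against 0.266 and 0 CPM in ST-HSC, or 487 and 211 reads in LT-HSC against 4 and 0 reads in ST-HSC. Its unadjusted p was 0.0102 and its adjusted p 0.716 by limma. Jmjd5, an older name of Kdm8, a Jumonji hydroxylase, had 0.535 and 0.0619 CPM in LT-HSC against 28.1 and 27.6 CPM in ST-HSC, or 7 and 1 reads in LT-HSC against 423 and 409 reads in ST-HSC (unadjusted p = 0.0066, adjusted p = 0.716). Jmjd6, a lysyl hydroxylase of splicing factors, was at 221 and 272 CPM in LT-HSC against 150.4 and 128 CPM in ST-HSC (log2 fold change 0.82 ± 0.26 SE). With Ezh2 these made 2 higher and 2 lower at an unadjusted p under 0.05 among 13 tested genes of this list, against 2.87% and 3.6% of all tested genes, and 0 passed over all genes. Its median log2 fold change was 0.10.

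Partner genes were read by complex. Of 13 COMPASS and MLL complex subunits, 0 were higher and 2 lower at an unadjusted p under 0.05 by limma. Over all tested genes 2.87% were higher and 3.6% lower. The median log2 fold change of these subunits was -0.07. Ncoa6, a coactivator subunit of the Mll3 and Mll4 complexes, had 24.2 and 45.6 CPM in LT-HSC against 98.9 and 115 CPM in ST-HSC (log2 fold change -1.65 ± 0.49 SE). Paxip1 (PTIP), from the same complexes, had 20.9 and 8.54 CPM in LT-HSC against 74.2 and 47.2 CPM in ST-HSC (-2.06 ± 0.74 SE). The core subunits Wdr5, Rbbp5 and Dpy30 overlapped between groups, and Ash2l lay above both ST-HSC libraries at 223 and 169 CPM in LT-HSC against 139 and 162 CPM in ST-HSC.

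No gene of the LSD1-CoREST list (12 tested, median 0.14) or of the H3K9 partners and readers (11 tested, median -0.13) had an unadjusted p under 0.05. Over all tested genes 6.48% did. Gfi1, the repressor that recruits LSD1, had 28.5 and 67.7 CPM in LT-HSC against 16.6 and 10.3 CPM in ST-HSC, both above. Rcor2, a CoREST subunit, had 26.5 and 15.5 CPM in LT-HSC against 18.3 and 1.69 CPM in ST-HSC and overlapped. Cbx5, which encodes the H3K9 methylation reader HP1 alpha, lay below at 190 and 288 CPM in LT-HSC against 338 and 387 CPM in ST-HSC. Wiz, a zinc finger partner of G9a, was at 74.6 and 65.7 CPM in LT-HSC against 155 and 78.8 CPM in ST-HSC.

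Among the DOT1L partners and MLL fusion genes (10 tested, median -0.80), 1 was higher and 1 lower at an unadjusted p under 0.05. Over all tested genes 2.87% were higher and 3.6% lower. Mllt3 (AF9), a YEATS-domain partner of DOT1L, had 656 and 615 CPM in LT-HSC against 404 and 459 CPM in ST-HSC, with a log2 fold change of 0.56 ± 0.16 (SE, adjusted p = 0.716). Aff3, a scaffold gene of elongation complexes, had 65.5 and 112.5 CPM in LT-HSC against 186.5 and 179 CPM in ST-HSC (log2 fold change -1.08 ± 0.37 SE, adjusted p = 0.749). The list's median was -1.83 within number 1 libraries and 0.0032 within number 2 libraries.

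**Figure D5:**
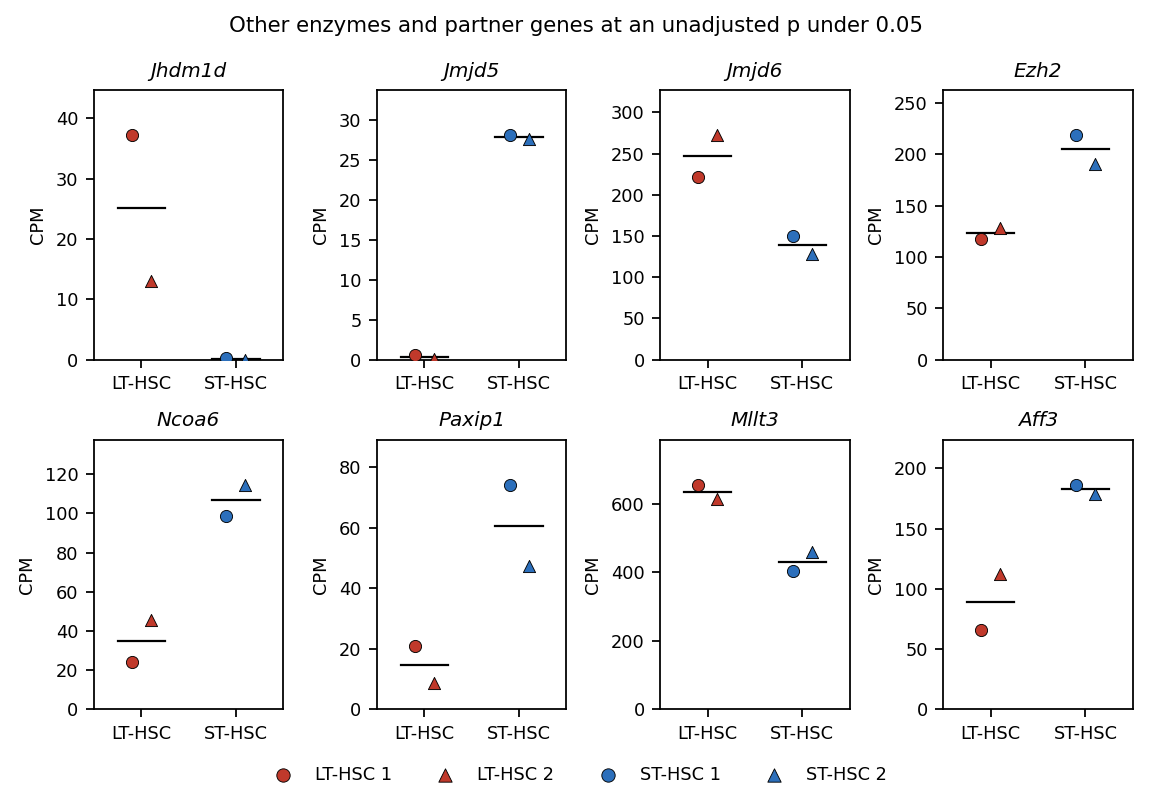
CPM by library (points) and group means (horizontal lines) for 8 genes outside the membership rule with an unadjusted p under 0.05 by limma, LT-HSC left and ST-HSC right, each axis from 0. Jhdm1d was close to 0 in ST-HSC and Jmjd5 close to 0 in LT-HSC, while Mllt3 and Jmjd6 were higher and Ezh2, Ncoa6, Paxip1 and Aff3 lower in LT-HSC.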

How the data were processed

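RNA was read in 2 LT-HSC and 2 ST-HSC libraries from SMARTer cDNA, according to the labels' protocols. TopHat and mm9 are named in the submitters' processing notes. For the counter, annotation, strand setting, duplicates and filters, nothing is stated (not given in the sources used here). The authors deposited log2 values scaled to each library's total. Low values step as whole reads plus 1, and 100% of values up to 100 reads came out within 0.1 of a whole read. Raising unread genes to 1 read would give the same steps, with 1 read more per read gene. CPM were computed from these reads and the authors' totals. A floor of 3 reads equals 0.186 to 0.229 CPM. Floors and reads cover counting error only.

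Tested genes reached 1 CPM in 2 or more libraries. They were fitted on log2(CPM + 1) with limma 3.58.1 in R 4.3.3 (trend, robust, statmod 1.5.0), with Benjamini-Hochberg adjustment over all 12569 genes called at 0.05. This scale understates the fold change of low genes. An exact permutation test of 2 against 2 libraries cannot go below p = 0.333 and was not used. The fit was tested on simulated reads. Chi-square statistics of reads over degrees of freedom came to 183 (LT-HSC pair) and 144 (ST-HSC pair), which shows no duplicated library. Promoters are from RefSeq (GRCm38.p6), lengths and overlaps from GENCODE M21, and no coordinates of that build were joined to the mm9 files. The members and lists were chosen with earlier results of these data known. Values per library are given for members without overlap and at least 0.5 in log2 fold change, at an unadjusted p under 0.05, read in 1 group only, or highest in their class, and for partner genes at an unadjusted p under 0.05 or else the 2 with the smallest p. Other genes given by library were chosen after their values were seen. Alternatives were other scalings, filters, added values, the replicate number as a block, single libraries left out, limma-voom, the deposited values and no robust shrinkage.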

Additional observations from a re-analysis of the deposited data

How the results depend on the processing

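No gene passed the threshold under any of the 14 alternatives, where the smallest adjusted p ran from 0.0734 to 0.855. The members' median log2 fold change ran from -0.11 to -0.046, and from -0.21 to 0.17 with single libraries left out, where its sign changed once. All lie within 0.31 of the value given (the SD of the median over the library numbers). That SD comes from the number 1 and number 2 medians of the same libraries, -0.22 and 0.21. It is larger than the median itself and so does not show that the median is stable. With a group cut to 1 library, which limma assumes to vary like the others, members without overlap numbered 23 to 32, those above 8 to 17 and those below 11 to 18, because fewer libraries must be separated. Of all tested genes, 61.2% to 72.8% then did not overlap.

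With median-of-ratios factors 11 members did not overlap and 5 lay below, Suv420h1 no longer among them. Of the 18 members that the naming rule picked, 10 kept their sign under all alternatives, namely the 8 without overlap as reported, Kdm4c and Whsc1. Kdm4c did not overlap either. Where groups do not overlap, leaving out a single library cannot turn the sign, so for those members the kept sign is no further evidence. Ehmt1 turned to 0.011 with median-of-ratios factors and 0.0033 with upper-quartile factors, and Kdm5a to 0.028 with limma-voom. With single libraries left out, the sign turned for Ehmt1 (-0.38 to 0.36), Kdm5a (-0.60 to 0.53), Dot1l (-0.56 to 1.15), Mll1 (-0.14 to 0.062), Kdm2a (-0.39 to 0.63), Mll5 (-0.40 to 0.037), Setd8 (-0.014 to 0.83) and Kdm3b (-0.52 to 3.64). The cause was not tested.

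Libraries of the same number deviated together with r = 0.052 across genes, and the labels do not say that a number marks a shared animal or day. With the replicate number as a block, 0 genes passed and the members' median was -0.099. Unadjusted counts over all genes were 361 higher and 453 lower, and 186 to 407 higher and 129 to 889 lower with single libraries left out.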

Other observations

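Genes that supply the cofactors of these enzymes were also read. Of 15 tested genes for S-adenosylmethionine and 2-oxoglutarate supply, 0 were higher and 2 lower at an unadjusted p under 0.05 by limma. Over all tested genes 2.87% were higher and 3.6% lower, and 0 passed after adjustment. Ahcyl1, a relative of S-adenosylhomocysteine hydrolase that acts on the IP3 receptor, had 166 and 150.0 CPM in LT-HSC against 329 and 299 CPM in ST-HSC (log2 fold change -0.99 ± 0.22 SE, adjusted p = 0.716). Its paralog Ahcyl2 had 5.20 and 7.24 CPM in LT-HSC against 54.1 and 85.5 CPM in ST-HSC (-3.27 ± 0.75 SE, adjusted p = 0.716). The synthetase Mat2a, which makes the methyl donor, was at 444 and 493 CPM in LT-HSC against 424 and 551 CPM in ST-HSC and overlapped, as did Idh1, Idh2 and the Idh3 subunits.

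The Y-linked Ddx3y and the X-linked Tsix were chosen after their values were seen. Ddx3y had 51.8 and 115 CPM in LT-HSC against 53.0 and 79.7 CPM in ST-HSC. Tsix had 456 and 71.0 CPM in LT-HSC against 600 and 120 CPM in ST-HSC, with the number 1 library the higher in both groups. Kdm5c and Kdm6a are X-linked, and the part of donor sex in their values was not tested.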
